A study of Homo sapiens with 12 samples.

Results

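The genes described here are 35 genes of the NF-kB system, taken from a list of gene names that covers the NF-kB subunits, the proteins that regulate them and genes that NF-kB is known to switch on. Of the 35, 34 had a mean raw count of at least 10 over the 12 libraries, and all 34 were among the 15535 gene symbols tested, of 55782 in the table. TNFAIP2, named for its induction by tumour necrosis factor (TNF), was under the minimum, with 0 to 7 counts per library and a mean of 2.83, and it entered no test.

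NF-kB is a set of dimers of related transcription factors, which IkB proteins hold in the cytoplasm until the IKK kinase complex marks the IkB proteins for destruction. In T cells the antigen receptor reaches IKK through a complex that contains BCL10 and MALT1, and in T and B cells receptors of the TNF family reach it through TRAF proteins or, on the non-canonical route, through MAP3K14 and the processing of NFKB2. Many subunits, inhibitors and survival genes of the system are also its targets, so their RNA is often read as a record of NF-kB activity.

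The libraries came from T cells of the Jurkat leukaemia line, labelled LAG3+PD1+, cultured together with Raji-PDL1, a Burkitt lymphoma B cell line that carries PDL1. Both LAG3 and PD1 restrain T cells, and PDL1 engages PD1. In all 12 libraries the Raji-PDL1 cells were loaded with the superantigen SED (staphylococcal enterotoxin D, a toxin that bridges MHC class II and T cell receptors) at 100 ng/ml, the cells were plated at 100000 of each line per well, and the co-culture lasted 24 h. Both lines had been kept under puromycin, and the Jurkat line also under Geneticin, to hold their introduced genes. The 4 arms were isotype control antibody alone (isotype plus isotype), anti-LAG3 (MK4280) plus isotype, anti-PD1 (MK3475) plus isotype, and both antibodies together (the combination). In every arm each of the antibodies was used at 1, 0.1 and 0.01 µg/ml. These doses are those of the sample titles, while the treatment protocol tells of a dilution series that began at 10 µg/ml. Cells of several wells were pooled into 1 pellet of 800000 cells per condition, which gave 1 library per condition. No condition was repeated, so p-values here reflect how far single libraries scatter around a fit. That scatter may be technical, and it also holds any dose response that the fit does not describe. In such a mixed bulk sample, a change in the share of a line and a change in RNA per cell cannot be told apart, and the values belong to the mixture.

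The libraries held 23593973 to 36581754 counts, the most in the isotype library at 1 µg/ml. All 24 Jurkat T cell markers and all 28 Raji B cell markers listed were counted in every library, with none at 0. Of the genes named in the line labels, PDCD1 (PD1) and CD274 (PDL1) had at least 4767 and 2031 counts in each library, while LAG3 had 0 to 2, so LAG3 RNA was at or near the counting floor in all arms. The T markers summed to 1857 to 2100 CPM in the isotype libraries, 2105 to 2290 in anti-LAG3, 1966 to 2235 in anti-PD1 and 2042 to 2358 in the combination, where CPM is a gene's count relative to the scaled total of its library. The B markers summed to 10205 to 11498 CPM in isotype, 10219 to 10393 in anti-LAG3, 10524 to 10868 in anti-PD1 and 10748 to 11302 in the combination. As a balance of the lines, the mean log2 CPM of T markers less the mean of B markers stood at -1.96 ± 0.02 (SD, n = 3 doses) for isotype, -1.74 ± 0.04 for anti-LAG3, -1.90 ± 0.09 for anti-PD1 and -1.89 ± 0.07 for the combination. This balance had a slope per 10-fold dose of -0.0006 for isotype, 0.04 for anti-LAG3, 0.09 for anti-PD1 and 0.0002 for the combination. In the combination the balance was -1.85, -1.97 and -1.85 from the top to the bottom dose, so the slope there does not show the lower middle value.

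All 34 NF-kB genes were present in every library, at levels that spanned a wide range when set per kb of gene length. The highest median level was that of NFKBIA, the classical IkB inhibitor, at 87.1 CPM per kb, followed by BIRC3, a ubiquitin ligase of the cIAP family that blocks cell death, at 59.5, and TNIP1, a partner of the inhibitor TNFAIP3, at 45.5. Among the 5 subunits NFKB2 (34.1 CPM per kb) and RELB (33.6), the pair of the non-canonical route, lay above NFKB1 (25.4) and RELA (14.5), the pair of the canonical route, and REL, a subunit of lymphocytes, was lowest at 6.25. This order depends on the deposited gene lengths: in median CPM NFKB1 (159) was above NFKB2 (153) and RELB (102). The lowest levels per kb were those of NFKBIZ (1.79 CPM per kb), a nuclear IkB protein, IKBKG (1.70), the scaffold of IKK, and CFLAR (1.64), an inhibitor of caspase activation. CFLAR has a deposited length of 22529 bp, and its median of 36.9 CPM was above those of NFKBIZ (10.6) and IKBKG (6.01). Most of these genes moved little: for the 33 with a median of at least 10 CPM, the highest library was a median of 1.23 times the lowest, against 1.21 times over the 8775 tested genes of such a level. The widest range was that of NFKBIZ, whose 12 libraries ran from 6.88 to 17.8 CPM, a ratio of 2.59. Per kb, the neighbours NFKB2 and RELB overlapped in their ranges, while NFKBIA lay above every other of these genes in all 12 libraries.

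**Figure D1:**
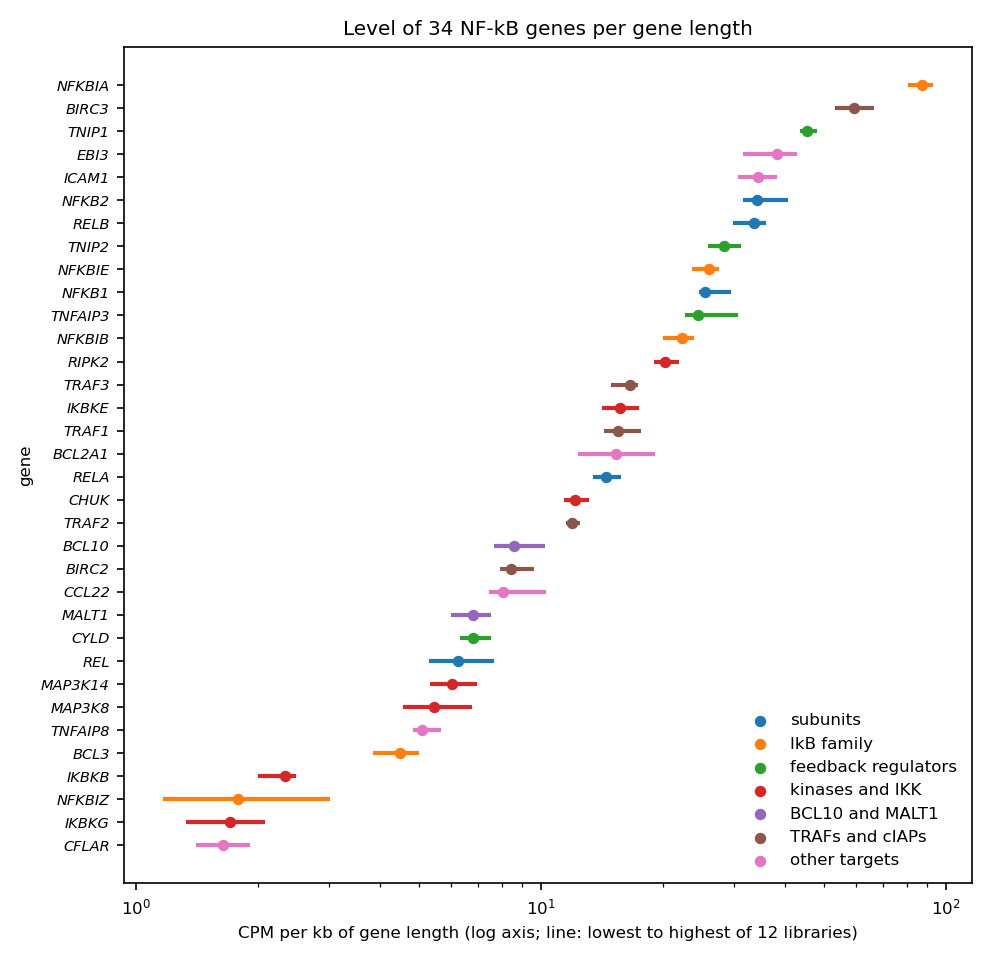
Median level (points) and lowest to highest of 12 libraries (lines) of 34 NF-kB genes, in CPM per kb of gene length on a log axis, coloured by role. NFKBIA is highest at 87.1 and CFLAR lowest at 1.64, and NFKBIZ has the longest line.

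The first comparison asked whether NF-kB genes followed the dose of the combination. Of the 34 genes, 6 rose with the dose of the combination relative to the isotype series and none fell: the subunits NFKB1, NFKB2 and REL, the feedback inhibitor TNFAIP3, the adaptor TRAF1 and the kinase MAP3K8. The measure was the slope in log2 level per 10-fold dose of the combination minus that of isotype, tested with the quasi-likelihood test of edgeR and adjusted by Benjamini-Hochberg over all genes, and values after ± on such slopes are standard errors. In this comparison 4.63% of all genes tested were called, and 1.83% as rises. The rises were small, between 0.15 and 0.36 log2 per 10-fold dose. The slope difference was positive for 25 of the 34 genes, against 51.4% of all genes, with a median of 0.10 against 0.01, and 13 of the 34 (38.2%) had an unadjusted p under 0.05, against 17.8% of all genes. Without the isotype library at 1 µg/ml that median was 0.04, with 24 of the 34 positive. The slope of the isotype series on its own also had an unadjusted p under 0.05 for 13 of the 34 (7 up, 6 down), against 13.7% of all genes.

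TNFAIP3 encodes A20, an enzyme that edits ubiquitin and shuts off NF-kB signalling (chr6:137867188-137883312, GRCh38, plus strand). It was counted at 155, 137 and 121 CPM in the combination at 1, 0.1 and 0.01 µg/ml, and at 119, 124 and 126 CPM in isotype. The level thus stepped up with dose in the combination, and the top and middle doses lay above every isotype library. The slopes differed by 0.22 ± 0.05 (adjusted p = 0.00610). TRAF1, an adaptor of TNF receptors (chr9:120902393-120929173, minus strand), stood at 114, 107 and 92.5 CPM in the combination and at 94.0, 96.1 and 105 CPM in isotype. Its libraries ran in opposite order in the 2 arms, and the slopes differed by 0.23 ± 0.05 (adjusted p = 0.00613).

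NFKB2, whose precursor p100 is processed to the subunit p52 (chr10:102394110-102402529, plus strand), was at 183, 170 and 148 CPM in the combination and at 141, 154 and 153 CPM in isotype. The slope difference was 0.21 ± 0.05 (adjusted p = 0.0145). NFKB1, which encodes p105 and the subunit p50 (chr4:102501329-102617302, plus strand), was at 185, 166 and 154 CPM in the combination and at 155, 159 and 159 CPM in isotype. Both genes were highest in the combination at 1 µg/ml, with that library and the 0.1 µg/ml library above all 3 isotype libraries and the 0.01 µg/ml library below them or among them. The slope difference of NFKB1, 0.15 ± 0.04 (adjusted p = 0.0448), was the nearest of the 6 to the threshold.

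REL, which encodes c-Rel (chr2:60881521-60931610, plus strand), was at 85.8, 85.5 and 71.0 CPM in the combination and at 76.3, 84.0 and 86.3 CPM in isotype. In the combination only the lowest dose stood apart, below every isotype library, and the other two combination libraries were level with isotype. The slope difference was 0.22 ± 0.05 (adjusted p = 0.0163). It was 0.09 without the combination library at 0.01 µg/ml (adjusted p = 0.917) and 0.36 without that at 1 µg/ml (adjusted p = 0.0259). MAP3K8, a kinase also called TPL2 that joins NF-kB to the MAP kinases (chr10:30433937-30461833, plus strand), was at 24.4, 21.4 and 19.1 CPM in the combination and at 16.5, 21.6 and 21.3 CPM in isotype. The isotype library at 1 µg/ml was the lowest of the 12. The slope difference of 0.36 ± 0.08 (adjusted p = 0.0120) was 0.16 without that library (adjusted p = 0.957), and the slope of the combination on its own was 0.18 (adjusted p = 0.104). For REL, exons of a transcript on the same strand, AC010733.2, overlap those of the gene over 5702 bases in the GENCODE annotation, and no source used here says how such overlaps or strand were treated in the deposited counts, so its counts are less certain than those of the other 5.

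**Figure D2:**
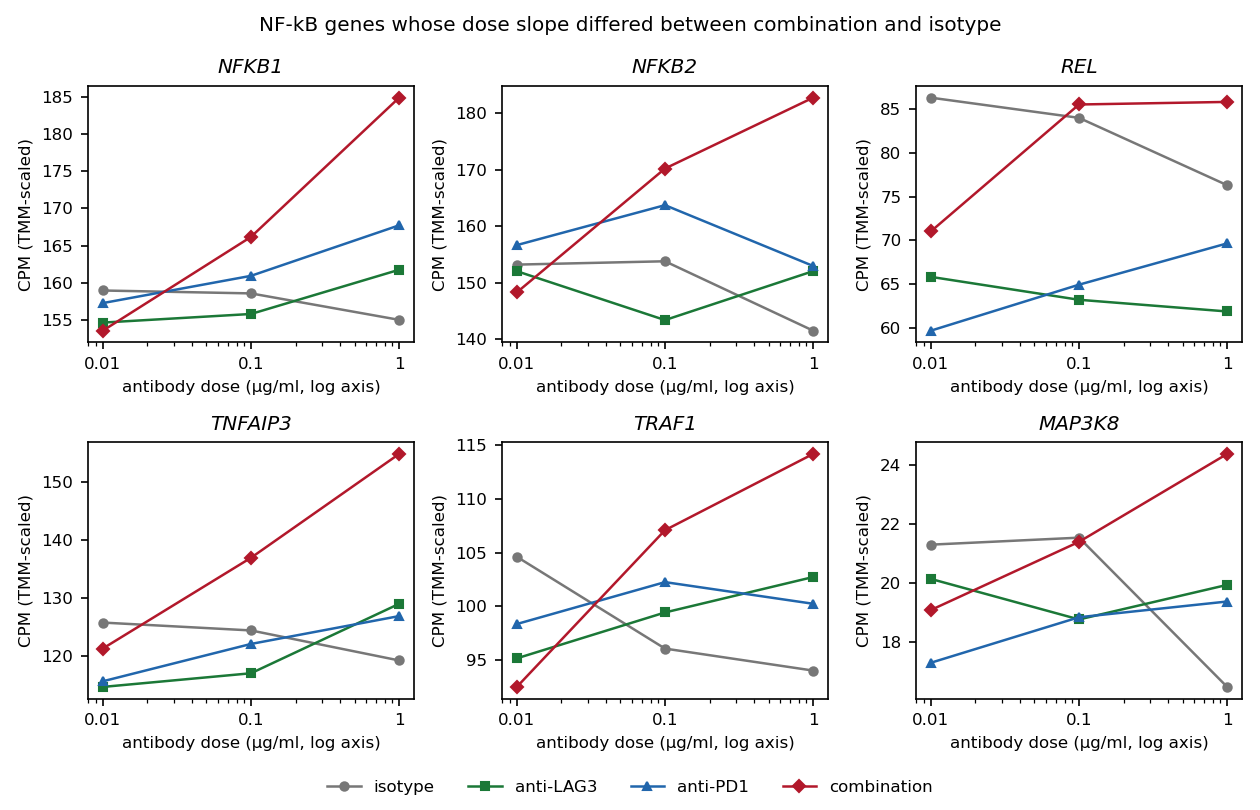
Level in CPM (1 library per point) against antibody dose in µg/ml (log axis) for the 6 NF-kB genes whose dose slope differed between the combination and isotype, with the 4 arms as lines; the vertical axes do not start at 0. The combination climbs in all 6 panels, while isotype is flat or declines, and for REL the single antibodies lie below both.

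Leaving out a single library changed these 6 calls. Without the isotype library at 1 µg/ml or the combination library at 0.01 µg/ml none of the 34 genes was called, without the isotype library at 0.01 µg/ml (MAP3K8) or the combination library at 1 µg/ml (REL) 1 was, and without the anti-PD1 library at 0.1 or 0.01 µg/ml 10 were, the 6 among them. NFKB1 was called in 3 of the 12 fits with a library left out, those without an anti-PD1 library. Its adjusted p was 0.0530 without the isotype library at 0.1 µg/ml, 0.0561 without the combination library at 0.1 µg/ml and 0.0829 to 0.0838 without any 1 of the anti-LAG3 libraries. DESeq2 called 3, which were NFKB2, TNFAIP3 and TRAF1. With the T minus B marker balance in the fit 7 were called, the 6 among them. For these alternative fits the share of all genes called is not given here, so their counts cannot be set against it. The slope of the combination against 0, without isotype, also gave 6 calls (4.27% of all genes were called), in which RELB, at 109, 103 and 91.5 CPM, joined the other 5 and MAP3K8 was not called. In that slope 26 of the 28 B markers were also positive, 2 of them called as rises, and of the 24 T markers 6 rose and 5 fell, and their part in the members' slopes was not tested.

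The kappaB motif, the DNA sequence that NF-kB dimers bind, was looked for in the 250 bases before each transcription start listed by RefSeq for GRCh38.p14, on both strands and with overlapping matches counted. Of the 35 genes 31 were in that table, and 15 of them (48.4%) had a match to the 10-base kappaB consensus before at least 1 start, against 15.7% of the 10137 tested symbols in the table and 11.8% of all 27305. A match was present for 5 of the 6 genes that rose with the combination dose relative to isotype, the exception being TRAF1 with 3 listed starts. It was also present for 10 of the 24 others that were in the table and tested. The list was made of known NF-kB targets in part, so this share describes the list and not the response to antibody. A match is a description of the sequence and not a binding site shown here. The following stretches of 30 bases are given, 5′ to 3′ on the strand of the gene, because they show matches close before the starts of the genes that rose and of NFKBIA, which was not called, with the matched bases in capitals.
NFKB1, chr4:102501300-102501329: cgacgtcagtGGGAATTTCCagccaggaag
NFKB2, chr10:102394490-102394519: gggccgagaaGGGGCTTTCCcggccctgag
NFKB2, chr10:102394462-102394491: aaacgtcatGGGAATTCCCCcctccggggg
NFKB2, chr10:102395674-102395703: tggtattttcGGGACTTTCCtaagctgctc
REL, chr2:60881518-60881547: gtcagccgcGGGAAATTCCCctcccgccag
TNFAIP3, chr6:137867188-137867217: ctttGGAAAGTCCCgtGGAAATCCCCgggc
MAP3K8, chr10:30433982-30434011: ggggagacgcGGAATTTCCCagcgcggggg
NFKBIA, chr14:35404811-35404840 (minus strand): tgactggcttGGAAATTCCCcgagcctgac
TNFAIP3 holds 2 separate matches in this stretch, 46 to 67 bases before the start, and NFKB2 holds matches at 69 to 78 and 97 to 107 bases before 1 start and at 12 to 21 bases before another. The match of NFKB1 lies 40 to 49 bases before its start, that of REL 37 to 47, that of MAP3K8 20 to 29 and that of NFKBIA 72 to 81. Not printed are a match of NFKB2 at 167 to 176 bases before its other start and one of MAP3K8 at 198 to 207 bases before a further start, and the MAP3K8 stretch above also lies 183 to 192 bases before another of its starts. Positions count from the RefSeq starts, and GENCODE places exons further upstream for some of these genes. The printed stretches of TNFAIP3 and MAP3K8 and the first and second of NFKB2 lie wholly in GENCODE exons, over all 30 bases. Those of REL, NFKB1 and the third of NFKB2 do so over 27, 21 and 11 bases, and that of NFKBIA over 0. NFKBIA, with a match like the others, had a slope difference of -0.04 ± 0.04 (adjusted p = 0.719).

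The remaining members are described by role. Of the 5 subunits RELA and RELB were not called. RELA, which encodes p65 (chr11:65653596-65663094, minus strand), was at 82.2, 77.0 and 79.5 CPM in the combination and at 85.7, 78.6 and 76.5 CPM in isotype, a slope difference of -0.06 ± 0.06 (adjusted p = 0.647). RELB, the partner of p52 (chr19:45001430-45038198, plus strand), was at 109, 103 and 91.5 CPM against 93.7, 97.8 and 90.5 CPM, a difference of 0.10 ± 0.05 (adjusted p = 0.290). RELA overlapped isotype throughout, and the RELB libraries of the combination at 1 and 0.1 µg/ml lay above the isotype range.

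None of the 5 IkB proteins was called. NFKBIA (chr14:35401511-35404749, minus strand) was at 221, 214 and 207 CPM in the combination and at 215, 192 and 191 CPM in isotype. It was highest at the top dose in both arms, and the sign of its small slope difference was not stable: the slope of the combination alone was 0.05, and the difference was 0.04 without the isotype library at 1 µg/ml. NFKBIB, NFKBIE and BCL3 had slope differences of 0.09, 0.11 and -0.03. NFKBIZ had the largest difference of the 34, 0.45 ± 0.23, with an adjusted p of 0.384: it was at 11.9, 13.9 and 14.9 CPM in the combination and at 7.41, 15.5 and 17.8 CPM in isotype, so that it stood lower at the higher doses in both arms and more so in isotype.

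Of the 4 feedback regulators that act through ubiquitin, TNFAIP3 rose and the other 3 were not called. TNIP2, an A20-binding inhibitor, had a slope difference of 0.16 ± 0.05 (adjusted p = 0.0658), CYLD, a deubiquitinase, one of 0.15 ± 0.05 (adjusted p = 0.103), and TNIP1 one of -0.08 ± 0.04 (adjusted p = 0.341). Of the 7 kinases, MAP3K8 alone was called. MAP3K14, the NF-kB-inducing kinase of the non-canonical route, had a difference of 0.19 ± 0.07 (adjusted p = 0.118), and the IKK subunits CHUK, IKBKB and IKBKG had differences of 0.04, -0.13 and 0.12, none of them called. IKBKG has a near-identical pseudogene copy and MAP3K14 an antisense transcript with 713 bases of shared exon, so both counts are uncertain.

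Neither BCL10 (0.09) nor MALT1 (0.11), the partners in the antigen receptor complex, was called. Among the 5 TRAF and cIAP genes TRAF1 rose, and BIRC3 (0.10), BIRC2 (0.09), TRAF3 (0.05) and TRAF2 (-0.03) were not called. None of the 6 survival genes and other targets was called. CFLAR had the largest slope difference of these, 0.24 ± 0.07 (adjusted p = 0.0597). Its exons share 445 bases with a transcript on the same strand and 777 and 1488 with 2 on the opposite strand, so its count is uncertain. ICAM1, an adhesion molecule, and EBI3, a cytokine subunit, had differences of -0.07 and -0.08.

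Within the combination, the order of the doses was shared by most of the 34 genes. The level was higher at each dose step from 0.01 to 1 µg/ml for 22 of the 34, against 21.5% of all genes, and lower at each step for 2, against 21.7%. The same order was seen for 8 of the 34 in isotype (20.2% of all genes), 10 in anti-LAG3 (20.7%) and 9 in anti-PD1 (15.3%). The combination library at 1 µg/ml was the highest of the 12 libraries for 16 of the 34 genes, against 11.8% of all genes, including the subunits NFKB1, NFKB2 and RELB, the IkB gene NFKBIA, and the targets BIRC3, BCL2A1 and CCL22. The level at 1 over that at 0.01 µg/ml had a median of 1.12 in the combination, with 28 of the 34 above 1, from 0.795 for NFKBIZ to 1.28 for TNFAIP3. Over the tested genes with a median of at least 10 CPM the median ratio was 1.01. The slope of the combination on its own was also positive for 28 of the 34, against 49.4% of all genes. For the other arms the median ratio of the 34 was 0.977 (isotype), 1.02 (anti-LAG3) and 1.00 (anti-PD1), against 1.00, 1.01 and 0.996 over those tested genes. These counts describe single libraries, and 1 library at each end sets the order for all the genes at once.

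**Figure D3:**
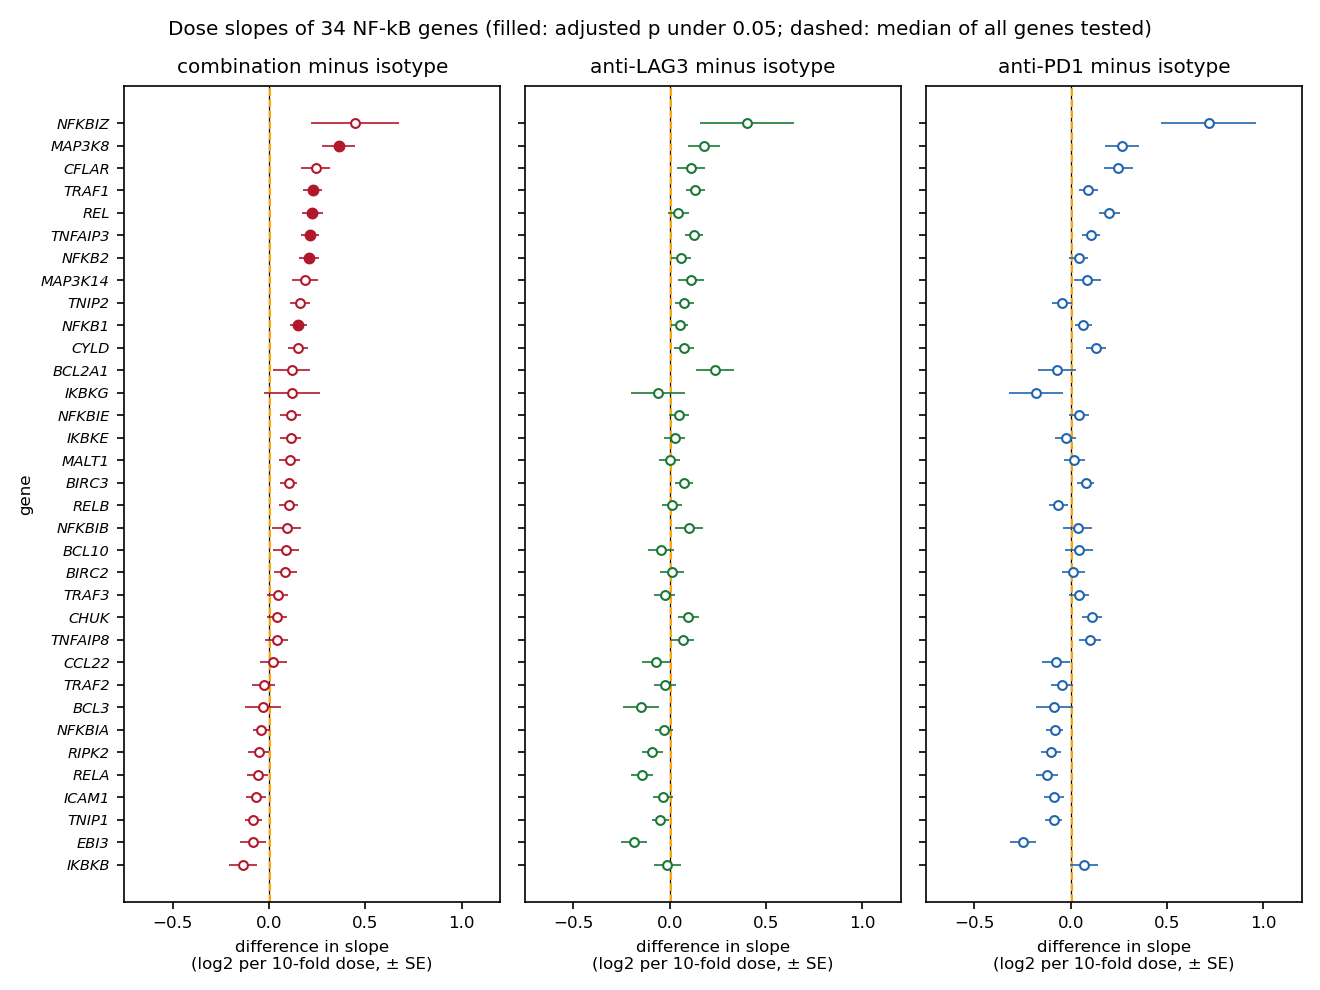
Difference in dose slope from isotype (log2 per 10-fold dose, points with ± SE) for 34 NF-kB genes in the combination, anti-LAG3 and anti-PD1, ordered by the combination; filled points have an adjusted p under 0.05 and the dashed line is the median of all genes tested. Of the 34, 25 lie above 0 in the combination, with 6 filled, and no point is filled for either single antibody.

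The single antibodies were compared with isotype in the same way, and these comparisons share the isotype libraries with the first. No NF-kB gene was called for the slope of anti-LAG3 (0.0708% of all genes were called) or anti-PD1 (0.264%) by edgeR's quasi-likelihood test, nor by DESeq2. At an unadjusted p under 0.05 there were 6 and 9 of the 34, against 7.99% and 11.1% of all genes. The slope differences from isotype had a median of 0.03 in anti-LAG3, with 21 of 34 positive, and of 0.04 in anti-PD1, with 20 positive, where 52.0% of all genes were positive in either arm. TNFAIP3 was at 129, 117 and 115 CPM with anti-LAG3 at 1, 0.1 and 0.01 µg/ml and at 127, 122 and 116 CPM with anti-PD1, with slope differences of 0.12 ± 0.05 (adjusted p = 0.474) and 0.11 ± 0.05 (adjusted p = 0.393). Both ran in the order of dose and stayed below the combination at 1 and 0.1 µg/ml. NFKB2 was at 152, 143 and 152 CPM with anti-LAG3 and at 153, 164 and 157 CPM with anti-PD1, with no order by dose in either.

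Whether the combination differed from each single antibody was tested directly on the slopes. No NF-kB gene was called against anti-LAG3 (0.766% of all genes were called) or anti-PD1 (0.644%) by edgeR's quasi-likelihood test or by DESeq2, and 4 and 9 of the 34 had an unadjusted p under 0.05, against 10.5% and 9.98% of all genes. The difference was positive for 25 of 34 genes against anti-LAG3, with a median of 0.08, and for 29 of 34 against anti-PD1, with a median of 0.06, while 49.6% and 48.9% of all genes were positive. The B markers moved with these counts, with 24 of 28 positive against anti-LAG3 and 26 of 28 against anti-PD1, 2 of the latter called as rises. Of the 24 T markers 4 rose against anti-LAG3 and 3 fell against anti-PD1, and the part of either marker list in the members' values was not tested. The smallest adjusted p was that of TNIP2 against anti-PD1, with a difference of 0.21 ± 0.05 (adjusted p = 0.0535). Of the genes that rose against isotype, only NFKB2, REL and TNFAIP3 are given here, against anti-LAG3 alone. The values of NFKB1, TRAF1 and MAP3K8, none of them called, are left out. The difference from anti-LAG3 was 0.15 ± 0.05 in NFKB2 (adjusted p = 0.199), 0.18 ± 0.06 in REL (adjusted p = 0.168) and 0.09 ± 0.05 in TNFAIP3 (adjusted p = 0.503). These values do not show a slope beyond that of a single antibody, and they do not show that the slopes were alike.

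The second kind of comparison set the mean level of each arm over its 3 doses against isotype. In this fit a dose response that differed between arms counts as scatter. In anti-LAG3, 4 of the 34 NF-kB genes fell and none rose: REL, ICAM1, BIRC3 and MALT1. Over all genes 10.0% were called in this comparison, and 5.16% as falls. In anti-PD1, 3 of the 34 fell and none rose, REL, BIRC3 and ICAM1, where 3.82% of all genes were called and 1.73% as falls. The 2 comparisons share the isotype libraries. In the combination none of the 34 was called (0.00644% of all genes) by edgeR's quasi-likelihood test or by DESeq2. At an unadjusted p under 0.05 in the edgeR test there were 6 of the 34 (17.6%) in the combination, against 6.68% of all genes. There were 11 (32.4%) in anti-LAG3 and 9 (26.5%) in anti-PD1, against 24.7% and 18.4%. The median difference over the 34 was -0.01 log2 for anti-LAG3, 0.02 for anti-PD1 and 0.05 for the combination, against -0.001, -0.01 and -0.003 over all genes.

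REL had the largest fall of the called genes. NFKBIZ, which was not called, had arm means of 7.91 CPM with anti-LAG3 and 9.87 with anti-PD1, against 13.6 ± 5.5 (SD) in isotype. REL was at 61.9, 63.2 and 65.9 CPM with anti-LAG3 and at 69.7, 65.0 and 59.7 CPM with anti-PD1, against 76.3, 84.0 and 86.3 CPM in isotype. All 6 single-antibody libraries lay below all 3 isotype libraries, and also below all 3 combination libraries. The arm difference was -0.37 ± 0.07 log2 in anti-LAG3 (adjusted p = 0.00504) and -0.34 ± 0.07 in anti-PD1 (adjusted p = 0.0197), and -0.03 ± 0.07 in the combination (adjusted p = 0.995). In anti-LAG3 it was called with each of the 12 libraries left out in turn, and with offsets for GC content and length, where it was -0.24 (adjusted p = 0.0207). In anti-PD1 it was -0.23 with those offsets (adjusted p = 0.0798), and it was not called without the isotype library at 0.1 or 0.01 µg/ml or the anti-PD1 library at 0.1 or 0.01 µg/ml.

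ICAM1, the adhesion molecule that T cells grip through LFA-1 (chr19:10270835-10286615, plus strand), was at 121, 116 and 113 CPM with anti-LAG3, at 115, 128 and 116 CPM with anti-PD1 and at 142, 135 and 127 CPM in isotype. The anti-LAG3 libraries lay below all of isotype, and the anti-PD1 library at 0.1 µg/ml overlapped it. The differences were -0.20 ± 0.05 (adjusted p = 0.00869) and -0.17 ± 0.05 (adjusted p = 0.0421). BIRC3 (chr11:102317450-102339403, plus strand) was at 423, 430 and 400 CPM with anti-LAG3, at 442, 401 and 416 CPM with anti-PD1 and at 458, 478 and 479 CPM in isotype. All 6 libraries were below isotype, and the combination, at 499, 474 and 452 CPM, spanned it. The differences were -0.17 ± 0.05 in both arms (adjusted p = 0.0169 and 0.0404). MALT1, the paracaspase of the antigen receptor complex (chr18:58671386-58754477, plus strand), was at 65.1, 70.0 and 67.9 CPM with anti-LAG3 and at 74.6, 76.1 and 77.9 CPM in isotype. Its 3 anti-LAG3 libraries were below isotype, by -0.17 ± 0.05 (adjusted p = 0.0388), and with anti-PD1 the difference was -0.08 ± 0.05 (adjusted p = 0.456). Exons of ICAM1 share 815 bases with an antisense transcript and those of MALT1 share 625 with another, so both counts are uncertain where strand was not used.

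**Figure D4:**
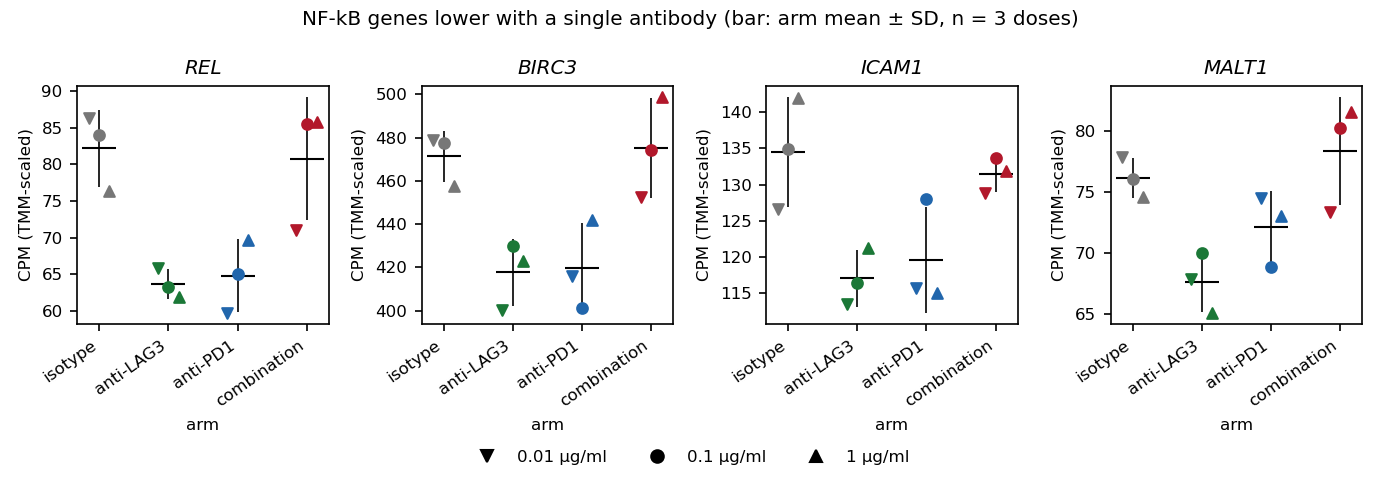
Level in CPM of REL, BIRC3, ICAM1 and MALT1 in the 12 libraries by arm (marker shape: dose), with bars for the arm mean ± SD over 3 doses; the vertical axes do not start at 0. For REL the anti-LAG3 and anti-PD1 libraries lie between 59.7 and 69.7, below every isotype and combination library.

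The T minus B marker balance moved with the anti-LAG3 falls, at -1.74 against -1.96 in isotype. In that arm 5 of the 24 T markers rose and none fell, while 1 of the 28 B markers rose and 4 fell. The balance was -1.90 in anti-PD1, where its range (-1.99 to -1.81) overlapped isotype. It was -1.89 in the combination, where none of the 34 genes was called. No T or B marker was called in the mean level of anti-PD1 or of the combination. With that balance in the fit none of the calls was kept: REL was at -0.39 in anti-LAG3 (adjusted p = 0.413) and -0.35 in anti-PD1 (adjusted p = 0.0554), ICAM1 at -0.17 and -0.16, BIRC3 at -0.19 and -0.17, and MALT1 at -0.05. The values of REL, ICAM1 and BIRC3 were near those without the balance, and that of MALT1 was not. The balance did not overlap between isotype (-1.99 to -1.95) and anti-LAG3 (-1.77 to -1.70), so in that arm this fit cannot tell the balance from the antibody. With offsets for GC content and length BIRC3 was at -0.07 and -0.06 and MALT1 at -0.06, while ICAM1 was at -0.27 and -0.24. The counts also changed when single libraries were left out. For those fits the share of all genes called is not given here, so their counts cannot be set against it. In anti-LAG3 7 of the 34 were called without the isotype library at 1 µg/ml (6 falls, 1 rise) and 2 without either other isotype library or any 1 of the anti-LAG3 libraries. In anti-PD1 5 were called without the isotype library at 1 µg/ml (4 falls, 1 rise), 1 without the anti-LAG3 library at 1 µg/ml, the anti-PD1 library at 0.1 µg/ml or the combination library at 0.1 µg/ml, and 0 without the isotype library at 0.1 or 0.01 µg/ml or the anti-PD1 library at 0.01 µg/ml.

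Genes whose libraries did not overlap those of isotype were counted too, called or not. In anti-LAG3, 6 of the 34 lay above every isotype library and 5 below, the 4 called genes among them (28.9% of all genes did not overlap), and in anti-PD1 4 above and 4 below, with the called genes REL and BIRC3 among them (22.2%). RELB was above in both, at 107, 102 and 102 CPM with anti-LAG3 and at 101, 105 and 107 CPM with anti-PD1, with differences of 0.14 ± 0.05 (adjusted p = 0.0834) and 0.15 ± 0.05 (adjusted p = 0.114). NFKBIE, an IkB protein, IKBKE, a kinase related to IKK, and IKBKG were also above isotype in both, and BCL10 was below in both. In the combination 2 of the 34 did not overlap isotype (8.48% of all genes), IKBKE and TNFAIP8, both above. Single-antibody libraries thus held NF-kB genes on either side of isotype, at shares near those of all genes.

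The authors' deposited tables, which set each antibody library against all 3 isotype libraries, called REL and TNFAIP3 and no other gene of the 34. In the authors' deposited tables all 34 had an adjusted p for the combination and for anti-PD1 at 1 and 0.1 µg/ml, while 26 had one for anti-PD1 at 0.01 µg/ml and 32, 27 and 23 for anti-LAG3 from the top to the bottom dose. In the authors' deposited table for the combination at 1 µg/ml, TNFAIP3 was the only NF-kB gene called, at 0.34 ± 0.09 log2 (adjusted p = 0.0147), where 1.67% of all genes were called. In the authors' deposited tables REL was the only one called in anti-LAG3 at 1 µg/ml (-0.41, adjusted p = 0.0128) and 0.1 µg/ml (-0.38, adjusted p = 0.0252) and in anti-PD1 at 0.01 µg/ml (-0.45, adjusted p = 0.0127), where 1.43%, 1.24% and 0.549% of all genes were called. These shares are over every gene listed in the authors' deposited tables, with or without an adjusted p. Of the genes with an adjusted p, 250 of 14421 were called for the combination at 1 µg/ml. For the 3 single-antibody libraries named, in that order, 216 of 8368, 186 of 6557 and 82 of 5669 were called. The other 5 of the authors' deposited tables called none of the 34. In the authors' deposited tables of the combination 27 of the 34 values were positive at 1 µg/ml, 29 at 0.1 µg/ml and 10 at 0.01 µg/ml, with medians of 0.13, 0.06 and -0.03 log2. Over all genes the authors' deposited tables had 49.0%, 48.4% and 49.3% positive, with medians of -0.004, -0.004 and -0.002, and these tables share their control libraries.

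A further 125 genes of the pathway, in lists of receptors and ligands, adaptors and kinases, inhibitors, and targets, were set beside the members, and 112 of them were tested. In the slope of the combination against isotype 7 of the 112 rose and 2 fell, against 4.63% of all genes called. The rises were in 2 of the 21 receptors and ligands and 5 of the 40 targets. None of the 30 adaptors and kinases and none of the 21 other inhibitors was called. Outside the combination, IER3 and DUSP2 rose in the slope of anti-LAG3, by 0.71 ± 0.11 (adjusted p = 0.00259) and 0.33 ± 0.06 (adjusted p = 0.0129), and IER3 in that of anti-PD1, by 0.52 ± 0.11 (adjusted p = 0.0400). None of these calls was kept without the isotype library at 1 µg/ml, where they were 0.67, 0.16 and 0.48. Without the top dose of the antibody itself they were not called either, at 0.54, 0.28 and 0.20. IER3 was also not called in either arm without the isotype library at 0.01 µg/ml (adjusted p = 0.120 and 0.201). Without the bottom dose of the antibody itself DUSP2 was not called in anti-LAG3 (adjusted p = 0.275), nor IER3 in anti-PD1, at 0.78 (adjusted p = 0.0532).

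Among the targets, IER3, an early response gene that limits cell death, was at 29.1, 15.2 and 8.42 CPM in the combination and at 8.97, 9.02 and 8.61 CPM in isotype, a slope difference of 0.87 ± 0.11 (adjusted p = 1.07e-05). DUSP2, a phosphatase of MAP kinases, was at 171, 122 and 88.9 CPM against 80.2, 95.5 and 89.4 CPM, a difference of 0.55 ± 0.06 (adjusted p = 1.06e-06). Both climbed stepwise with the dose of the combination and were level with isotype at 0.01 µg/ml. CD82, a tetraspanin, was at 260, 217 and 184 CPM against 192, 190 and 193 CPM, with a difference of 0.26 ± 0.04 (adjusted p = 4.59e-04). IL2RA, which encodes CD25 of the high-affinity interleukin-2 receptor, was at 8.65, 2.26 and 1.32 CPM against 1.29, 1.68 and 1.56 CPM, with a difference of 1.58 ± 0.24 (adjusted p = 2.01e-04). Of the combination libraries of IL2RA that at 1 µg/ml stood far above the rest. VCAM1, an adhesion molecule, had 48, 12 and 13 counts in the combination and 6, 9 and 17 in isotype, with a difference of 2.06 ± 0.51 (adjusted p = 0.0193).

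Among the receptors and ligands, TNFRSF1B, a TNF receptor that signals through TRAF1 and TRAF2, was at 15.1, 8.32 and 7.76 CPM in the combination and at 6.54, 6.79 and 8.47 CPM in isotype, a slope difference of 0.68 ± 0.13 (adjusted p = 0.00159). CD40LG, the ligand of CD40 on B cells, had 86, 21 and 14 counts in the combination and 10, 15 and 12 in isotype, with a difference of 1.81 ± 0.43 (adjusted p = 0.0138). TNFRSF8, which encodes CD30, fell: it was at 9.40, 15.3 and 16.8 CPM in the combination and at 18.9, 15.9 and 17.3 CPM in isotype, with a difference of -0.47 ± 0.10 (adjusted p = 0.00739). In all 3 the combination library at 1 µg/ml stood apart, and without it the differences were 0.29 (adjusted p = 0.561), 0.97 (adjusted p = 0.612) and -0.20 (adjusted p = 0.594), as it was 0.91 for IL2RA (adjusted p = 0.304) and 0.89 for VCAM1 (adjusted p = 0.726). Without the isotype library at 1 µg/ml none of these 8 genes was called, DUSP2 and IER3 coming nearest (both adjusted p = 0.0574). DESeq2 did not call VCAM1, CD40LG or TNFRSF8 (adjusted p = 0.249, 0.151 and 0.0549). The other gene that fell was MYC, a transcription factor of growth, by 0.16 ± 0.04 (adjusted p = 0.0298), which is named here after its value was seen. It was called in 5 of the 12 fits with a library left out and not by DESeq2 (adjusted p = 0.0633), and without the isotype library at 1 µg/ml it was at -0.13 (adjusted p = 0.866).

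The further genes also moved with the single antibodies. In mean level against isotype, 12 of the 112 rose and 6 fell in anti-LAG3 (10.0% of all genes were called), and 7 rose and 1 fell in anti-PD1 (3.82%). The marker balance given above moved with the anti-LAG3 counts too, and its part in them was not tested for these genes. In the combination slope, where 7 of the 112 rose, 5 of the 24 T markers rose and 6 fell, and none of the 28 B markers was called. The slope of the balance was 0.0002, but the balance was not level: it was -1.85, -1.97 and -1.85 from the top to the bottom dose.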

How the data were processed

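RNA of 12 co-cultures was analysed as gene counts. The authors deposited raw read counts per gene symbol, not normalised, with a length in bp per symbol, per the file headers. The submitters' processing notes name Trimmomatic 0.36, STAR 2.5.2b, featureCounts of Subread 1.5.2, DESeq2 and GRCh38, while the annotation, strand setting and multi-mapping rule were not given in the sources used here. The authors also deposited, per antibody library, log2 fold changes with standard errors and p-values and adjusted p-values against the 3 isotype libraries, per the file headers. Left out were 4 count columns with no matching label and 36 per-sample columns of those tables.

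Groups were taken from the treatment labels. Using edgeR 4.0.16 (R 4.3.3), counts of the 15535 genes that passed filterByExpr (minimum count 10, by arm) were scaled by TMM and tested with the robust quasi-likelihood F test, all 12 libraries sharing 1 estimate of the spread. CPM are counts relative to the TMM-scaled library size, and per kb they are divided by the deposited length. Slopes on log10 dose, centred at 0.1 µg/ml, were fitted per arm (4 residual degrees of freedom), and arm means with dose as a factor (6). Adjusted p-values are Benjamini-Hochberg over all genes tested, and under 0.05 a gene is called. The scripts were tested on simulated data. Gene coordinates are from GENCODE on GRCh38.

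The 35 genes, the pathway and marker lists and the tests were chosen with earlier results of these data known. NFKB1, NFKB2, REL, RELA, RELB, NFKBIA, TNFAIP3 and every member called in any of 8 comparisons are given by library, with up to 8 further pathway genes, by p, of those called in the combination slope. Alternatives were other filters and scalings, DESeq2 1.42.0, a T minus B marker covariate (log2 CPM, prior count 2), slopes against 0, no dose term, each library left out and, chosen after seeing the data, offsets for GC content and length, which 88.1% of genes tested and all 34 members had.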

Additional observations from a re-analysis of the deposited data

Results flagged for a closer look

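None of the 34 NF-kB genes was called for a dose slope that differed between the combination and a single antibody, but 3 of the 112 further pathway genes were, by the test of the difference itself between the combination and anti-PD1. DUSP2 had a slope 0.41 ± 0.06 log2 per 10-fold dose higher in the combination (adjusted p = 3.44e-04), with 171, 122 and 88.9 CPM from the top to the bottom dose, where anti-PD1 had 124, 111 and 114 CPM. CD82 had one 0.24 ± 0.04 higher (adjusted p = 0.00426), from 260, 217 and 184 CPM against 216, 213 and 214 CPM. TNFRSF1B had one 0.54 ± 0.13 higher (adjusted p = 0.0475), from 15.1, 8.32 and 7.76 CPM against 8.72, 8.69 and 9.25 CPM, and it was 0.14 without the combination library at 1 µg/ml (adjusted p = 0.935). For each of the 3 the anti-PD1 libraries lay close together and the combination at 1 µg/ml lay above all of them. Without that combination library DUSP2 was at 0.39 (adjusted p = 0.174) and CD82 at 0.24 (adjusted p = 0.364). Without the anti-PD1 library at 0.01 µg/ml the 3 were at 0.31, 0.23 and 0.49 (adjusted p = 0.213, 0.236 and 0.476), and CD82 and TNFRSF1B were also not called without that at 1 µg/ml. Over the 12 fits with a library left out, DUSP2 was called in 10, CD82 in 8 and TNFRSF1B in 3, so further libraries also mattered for CD82 and TNFRSF1B.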

How the results depend on the processing

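The count of NF-kB genes called in the combination slope was 6 and lay between 3 (DESeq2) and 7 under the 8 alternatives that kept all libraries. With each library left out it ran from 0 to 10. The anti-LAG3 slope and the combination slope against anti-LAG3 had 0 calls under every alternative run. The anti-PD1 slope, with 0, had 2 without a filter (1 up, 1 down) and 1 with the marker covariate, and 0 to 1 with a library left out. The combination slope against anti-PD1, with 0, had 1 with RLE size factors and 1 with GC and length offsets, and 0 to 1 with a library left out. The mean of the combination, with 0, had 0 to 3 with a library left out, 3 without its library at 0.01 µg/ml. The 4 calls in anti-LAG3 became 0 with the marker covariate and 2 to 7 with a library left out. The 3 calls in anti-PD1 became 0 with the marker covariate, 1 with GC and length offsets and 0 to 5 with a library left out. Of single genes, RELA turned from -0.06 to 0.024 as a slope against 0, and with a library left out it ran from -0.13 to 0.012, positive without the combination library at 0.01 µg/ml. NFKBIA turned from -0.04 to 0.047 as a slope against 0 and ran from -0.12 to 0.044 with a library left out, positive without the isotype library at 1 µg/ml. The causes were not tested. Other scalings moved the median of all genes by less than 0.1 log2. The labels give no replicate numbers. The arm means were paired by dose, as a block, and without that block 4 genes were called as falls in anti-LAG3 and 2 in anti-PD1, with 0 calls for the combination. For most of these alternatives the share of all genes called is not given here. A higher or lower count of NF-kB genes may thus go with more or fewer calls over all genes. One library per condition and small slopes limit what these counts can show.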
